A study of Mus musculus with 18 samples.

Results

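The 10 genes described here encode the enzymes that make and break down polyamines and the proteins that set the amount of the first of these enzymes: *Odc1*, *Amd1*, *Srm*, *Sms*, *Oaz1*, *Azin1*, *Sat1*, *Smox*, *Paox* and *Aoc1*. They were taken by gene symbol, and 10 of 10 were found among the 55401 genes of the table, of which 33307 had at least 1 count. *Aoc1* was selected on its measured level in cKO MTAL, which exceeded that of both normal segments. The values of *Aoc1* in cKO MTAL are therefore a description with no test, whereas the other 9 genes were included for their place in the pathway.

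RNA of pools of thick ascending limbs (TAL) microdissected from mouse kidney was sequenced. Cortical limbs (CTAL) and medullary limbs (MTAL) came from *Cldn10* fl/fl; Ksp-Cre mice (cKO) or from *Cldn10* fl/fl littermates without Cre (WT), so that both genotypes carried the floxed alleles and all were adult untreated males labelled C57BL/6J. Each of WT CTAL, cKO CTAL and WT MTAL had 5 pools, cKO MTAL had 3, and each pool came from a different animal. Ksp-Cre is driven by the Ksp-cadherin promoter and acts in the distal nephron, of which the TAL is a part, and *Cldn10* encodes the paracellular sodium channel claudin-10. Other segments were not measured.

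Polyamines are small positively charged molecules that bind nucleic acids and are needed for protein synthesis and cell growth. Ornithine decarboxylase turns ornithine into putrescine, and aminopropyl groups are then added to make spermidine and spermine. Polyamines are also acetylated, oxidised or exported, and diamine oxidase, the product of *Aoc1*, is a secreted enzyme that oxidises putrescine and histamine outside the cell. In the mouse kidney *Odc1* is best known for its androgen-driven expression in the proximal tubule.

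Total counts ranged from 10824328 to 62339991 per pool. Levels of single genes are given as CPM, the count scaled to the TMM-normalised size of its library. *Cldn10* lay between 384 and 579 CPM in WT CTAL, between 653 and 810 CPM in WT MTAL, between 156 and 185 CPM in cKO CTAL and between 151 and 295 CPM in cKO MTAL, and so was reduced but not absent in both cKO groups. The labels of WT CTAL pool 1 conflict, since its name says WT and its genotype field says knock-out; its *Cldn10* level was 446 CPM and it was used as WT. All pools held 11420 to 16150 CPM of *Slc12a1*, the sodium-potassium-chloride cotransporter that defines the TAL. *Xist*, which is transcribed from the inactive X chromosome of females, reached 6.50 to 8.77 CPM in 7 of the 18 pools and at most 0.738 CPM in the others, although the animals are described as males and the 4 Y-linked genes examined summed to between 87.8 and 127 CPM in every pool. The pools with *Xist* were 4 of 5 of WT MTAL (all but pool 13), pools 3 and 22 of WT CTAL, pool 2 of cKO CTAL and 0 of 3 of cKO MTAL. The 12 proximal tubule markers summed to 117, 399 and 269 CPM in cKO MTAL pools 16, 18 and 20, against 71.2 to 143 CPM in WT MTAL, and to between 54.97 and 342 CPM in cKO CTAL and between 75.9 and 242 CPM in WT CTAL. The 8 principal cell markers summed to 1054 CPM in cKO MTAL pool 20 and to 127 and 123 CPM in pools 16 and 18.

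The stretches before the RefSeq transcription start sites of *Aoc1* and *Odc1* are shown because these are the 2 genes of the set whose levels differed between the normal segments. They are 250 bases long, were taken from RefSeq on GRCm38.p6 and are written 5′ to 3′ on the strand of the gene, the plus strand for both. Capitals mark matches, on either strand, to an AP-1 motif (TGACTCA) or a GC box (GGGCGG). *Aoc1* has 2 RefSeq starts and hence 2 windows, chr6:48895005-48895254 and chr6:48904736-48904985, and the *Odc1* window is chr12:17544623-17544872.
Aoc1 window 1: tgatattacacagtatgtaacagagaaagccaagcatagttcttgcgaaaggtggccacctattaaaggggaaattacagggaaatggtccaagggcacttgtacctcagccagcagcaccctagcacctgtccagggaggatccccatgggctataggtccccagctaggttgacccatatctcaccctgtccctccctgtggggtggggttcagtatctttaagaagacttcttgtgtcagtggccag
Aoc1 window 2: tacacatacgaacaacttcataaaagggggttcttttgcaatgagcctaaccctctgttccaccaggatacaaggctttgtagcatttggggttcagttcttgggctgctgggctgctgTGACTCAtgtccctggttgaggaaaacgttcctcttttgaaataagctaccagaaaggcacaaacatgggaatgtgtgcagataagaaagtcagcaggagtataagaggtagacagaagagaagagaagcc
Odc1 window: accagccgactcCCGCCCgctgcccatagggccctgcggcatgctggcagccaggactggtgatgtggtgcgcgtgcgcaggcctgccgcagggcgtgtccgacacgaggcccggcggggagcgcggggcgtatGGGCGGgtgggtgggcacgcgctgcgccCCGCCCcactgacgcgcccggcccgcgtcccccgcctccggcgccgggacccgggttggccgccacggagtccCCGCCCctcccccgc
The *Odc1* window had a GC content of 80.0% and held 4 GC boxes. At least 1 GC box occurred in 32.7% of the 32851 RefSeq windows of this length, and the share with 4 was not computed. The *Aoc1* windows had GC contents of 51.2% and 45.6%, close to or below the median of 52.4% over all windows, and neither held a GC box. The second held 1 AP-1 motif, which 4.46% of all windows contain. None of these windows held an E-box (CACGTG) on either strand, nor was a match found to the letters TATAAA of the box named after them or to the letters CCAAT, and the files say nothing of what binds there. Windows were found for 8 of the 10 genes, not for *Srm* and *Azin1*. In the GENCODE annotation of GRCm38 *Aoc1* spans bases 48872896 to 48909188 of the plus strand of chromosome 6 and overlaps no other annotated gene. *Odc1* spans bases 17544794 to 17551505 of the plus strand of chromosome 12, with a small nucleolar RNA gene (*Gm22748*) inside it on the same strand. The RefSeq and GENCODE starts differ. Both *Aoc1* windows lie inside the GENCODE span of the gene, whose first base has no window before it, and the *Odc1* window runs past the GENCODE start.

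The levels of the 10 transcripts covered a wide range. On the TPM scale, which corrects for transcript length, the mean over the 18 pools was 411 for *Oaz1*, 219 for *Sat1*, 125 for *Odc1* and 74.5 for *Azin1*. Means of 16.5 TPM for *Amd1* and 12.7 TPM for *Srm* followed. The mean of 16.7 TPM for *Aoc1* rests on the MTAL pools, since its group means were 6.43 TPM in WT CTAL, 8.20 TPM in cKO CTAL, 14.9 TPM in WT MTAL and 51.2 TPM in cKO MTAL, and in both CTAL groups it lay below *Amd1* (16.8 and 19.7 TPM) and *Srm* (11.2 and 13.4 TPM). The lowest means were 5.38 TPM for *Sms*, 4.02 TPM for *Paox* and 2.69 TPM for *Smox*. The TAL thus held far more transcript of the genes that restrain ornithine decarboxylase and acetylate polyamines than of the aminopropyl transferases and intracellular oxidases. Neighbours in this order overlapped between pools. The highest *Sat1* pool (328 TPM) exceeded the lowest *Oaz1* pool (285 TPM), and *Aoc1* and *Amd1* had nearly the same mean but unlike spreads, 6.03 to 57.9 TPM for *Aoc1* and 10.98 to 22.8 TPM for *Amd1*. The coefficient of variation of CPM over the 18 pools was 84.6% for *Aoc1* and lay between 14.5% for *Azin1* and 31.7% for *Smox* among the other 9. The value for *Aoc1* includes the cKO MTAL pools on which it was chosen. Within cKO MTAL it was 11.2% for *Aoc1* and between 8.36% for *Azin1* and 35.7% for *Paox* among the other 9.

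*Aoc1* was the one gene of the set with a large change between groups. Its level was higher in the medullary than in the cortical limb of WT mice, and that in cKO MTAL was higher still. In cKO CTAL its level was close to that of WT CTAL. Levels below are in CPM, and fold changes come from a fit of the groups compared.

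In WT CTAL *Aoc1* measured 12.04, 12.1, 9.45, 13.7 and 12.6 CPM in pools 10, 1, 22, 3 and 8 (mean 11.99 ± 1.57, SD, n = 5). In cKO CTAL it measured 16.6, 16.1, 13.1, 18.2 and 13.1 CPM in pools 21, 2, 4, 7 and 9 (15.4 ± 2.25, SD, n = 5). These groups overlapped, since the highest WT CTAL pool lay above the lowest of cKO CTAL. In WT MTAL *Aoc1* measured 24.8, 41.9, 24.6, 29.2 and 30.8 CPM in pools 11, 13, 15, 17 and 19 (30.3 ± 7.05, SD, n = 5), and every pool lay above all 10 CTAL pools. In cKO MTAL it measured 70.9, 88.7 and 79.0 CPM in pools 16, 18 and 20 (79.5 ± 8.94, SD, n = 3). All 3 lay above the highest pool of any other group, with no overlap, which is the pattern for which the gene was chosen.

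**Figure D1:**
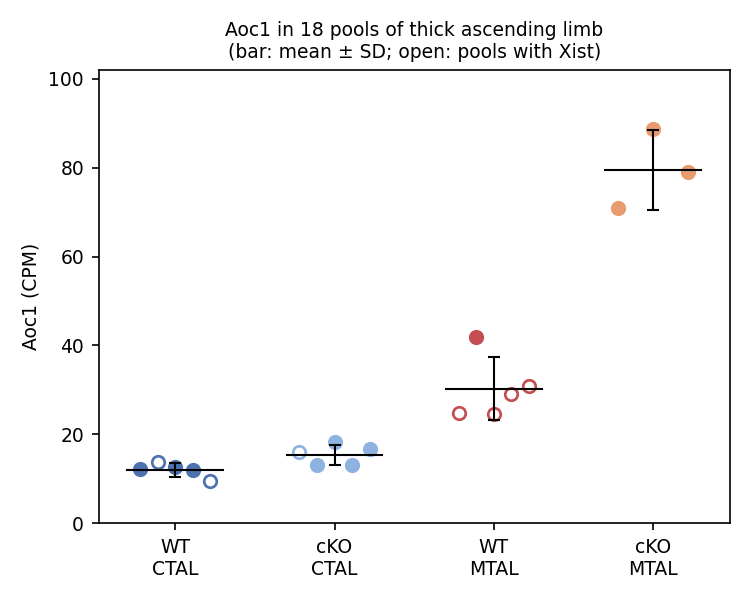
*Aoc1* level (CPM, linear axis from 0) in each of the 18 pools by group; points are pools, open points are pools with *Xist*, and lines with bars are the mean ± SD. The 3 cKO MTAL pools sit between 70.9 and 88.7 CPM, above the 5 WT MTAL pools (24.6 to 41.9 CPM), which sit above all CTAL pools (9.45 to 18.2 CPM).

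The choice of *Aoc1* set cKO MTAL against both normal segments, not these against each other, and the difference between the normal segments was tested. The same WT values entered the choice, so this p is not fully independent of it. *Aoc1* was 2.54-fold higher in WT MTAL than in WT CTAL (log2 fold change 1.34, SE 0.17, edgeR adjusted p = 6.83e-05), and higher in 5 of 5 WT MTAL pools than in any WT CTAL pool, as for 3.06% of all genes. Of all 11650 genes tested 6.87% passed an adjusted p of 0.05 in this comparison, 2.76% as higher and 4.1% as lower in MTAL. In the cortical limb the deletion gave *Aoc1* a log2 fold change of 0.35 (SE 0.14, adjusted p = 0.331, unadjusted p = 0.0273), which did not pass. As a description, *Aoc1* in cKO MTAL was 2.63-fold the level of WT MTAL (log2 fold change 1.40, SE 0.18), 6.69-fold that of WT CTAL (2.74, SE 0.14) and 5.31-fold that of cKO CTAL (2.41, SE 0.14). These comparisons share the cKO MTAL pools. The genotype difference in MTAL exceeded that in CTAL by 1.03 on the log2 scale (SE 0.22), again as a description.

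Within WT MTAL the 4 pools with *Xist* held 24.6 to 30.8 CPM of *Aoc1*, and pool 13, which lacked it, held 41.9 CPM. In WT CTAL the pools with *Xist* lay at 9.45 and 13.7 CPM and those without at 12.04 to 12.6 CPM. Over the 11 pools without *Xist*, among them a single WT MTAL pool, the log2 fold change of cKO MTAL over WT MTAL was 0.93, and with a term for *Xist* in a fit of all 18 pools it was 1.24. Because 4 of 5 WT MTAL pools and no cKO MTAL pool had *Xist*, what goes with *Xist* and what goes with genotype in MTAL cannot be told apart. In cKO MTAL pool 16, with a proximal tubule marker sum inside the WT MTAL range, *Aoc1* was at 70.9 CPM. With a term for these markers its log2 fold change was 1.36. In bulk pools, a larger share of cells of one type cannot be told apart from more RNA per cell.

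The other 9 genes stayed within a log2 fold change of 0.84 of 0 in the 5 comparisons of groups. Between cKO MTAL and WT MTAL 0 of the 9 passed an adjusted p of 0.05, where 7.01% of the 12060 genes tested passed, and 1 had an unadjusted p under 0.05 (*Oaz1*), where 23.6% of all genes did. DESeq2 called 1 of the 9, also *Oaz1*. Their median log2 fold change was 0.21 against 0.00 over all genes, with 8 above and 1 below 0. Between cKO CTAL and WT CTAL 0 of the 9 passed (1.22% of 11702 genes), 0 also at an unadjusted p (11.8% of all genes) and 0 by DESeq2, and their median was 0.01 against 0.00. Between WT MTAL and WT CTAL 1 of the 9 passed, *Odc1*, as lower (6.87% of 11650 genes), and DESeq2 also called 1. An unadjusted p under 0.05 was reached by 6 of the 9 in this comparison (19.1% of all genes), *Odc1*, *Sms*, *Oaz1*, *Azin1* and *Paox* with lower and *Sat1* with higher values in MTAL, and the median was -0.25 against 0.01 over all genes. Between cKO MTAL and cKO CTAL 0 of the 9 passed (1.75% of 12044 genes), 3 had an unadjusted p under 0.05 (17.7% of all genes) and 0 were called by DESeq2. The genotype effect differed between segments for 0 of the 9 (0.286% of 12586 genes), with 2 at an unadjusted p (*Smox* and *Oaz1*, against 14.7% of all genes) and 0 by DESeq2.

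**Figure D2:**
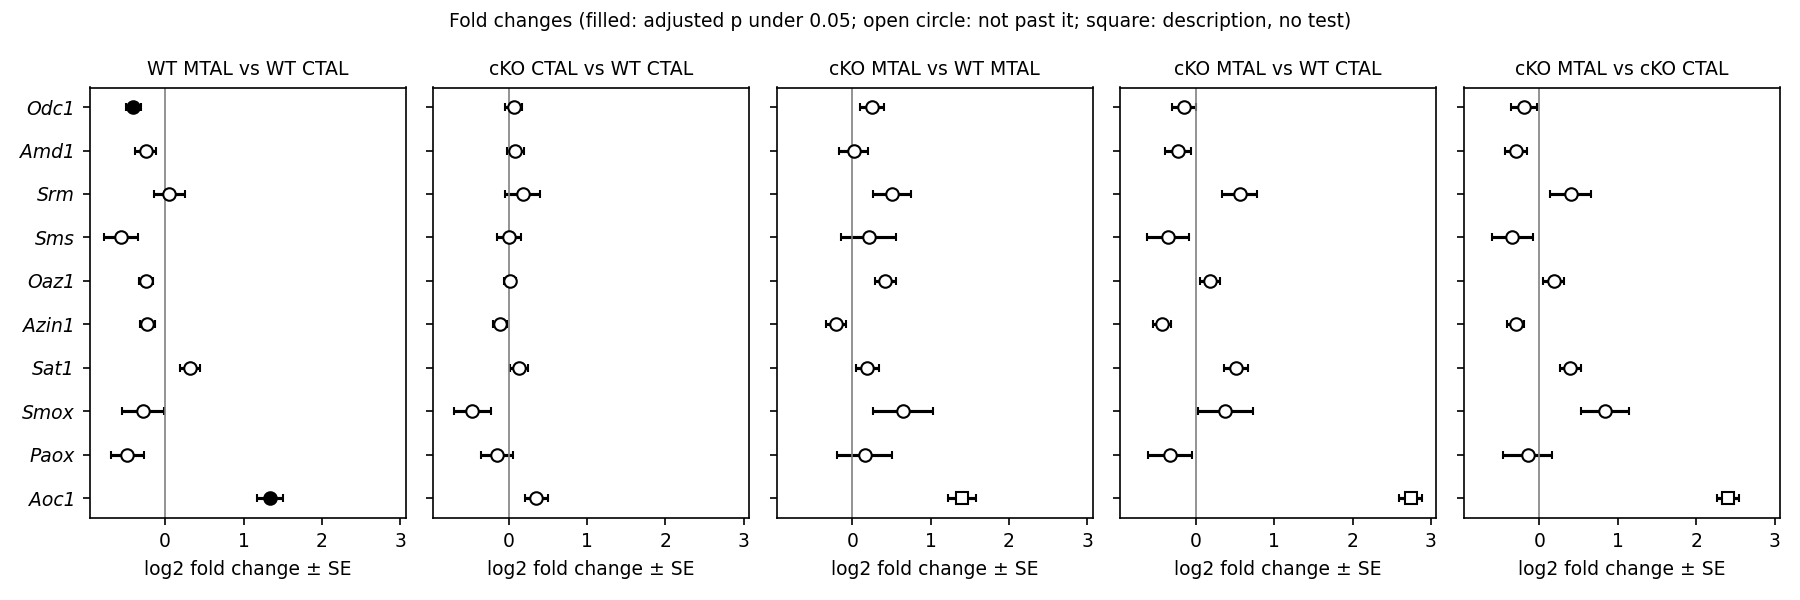
Log2 fold change ± SE of the 10 genes in 5 comparisons (one panel each, the same horizontal scale); filled points passed an adjusted p of 0.05, open circles did not, and squares are *Aoc1* values given as a description without a test. *Aoc1* lies at 1.34 between the WT segments and at 1.40 to 2.74 in the cKO MTAL panels, while the other 9 genes stay within 0.84 of 0.

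Among the synthetic enzymes, *Odc1*, which encodes ornithine decarboxylase, the first and rate-limiting enzyme, was lower in the medullary than in the cortical limb of WT mice. It measured 169, 179, 176, 206 and 162 CPM in WT CTAL pools 10, 1, 22, 3 and 8 and 134, 114, 127, 139 and 160 CPM in WT MTAL pools 11, 13, 15, 17 and 19. The highest MTAL pool lay just under the lowest CTAL pool, and the log2 fold change was -0.41 (SE 0.10, adjusted p = 0.0141). Groups did not overlap in this direction for 4.31% of all genes. The call was kept in all 10 fits that left out a pool. It was lost in one fit of all 18 pools (log2 fold change -0.41, adjusted p = 0.0588) and over the 11 pools without *Xist* (-0.57, adjusted p = 0.269), and held in 9 of 11 alternatives, with adjusted p from 0.00181 to 0.269.

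In the cKO groups *Odc1* was more dispersed. It measured 161, 241, 174, 175 and 187 CPM in cKO CTAL pools 21, 2, 4, 7 and 9 and 142, 210 and 127 CPM in cKO MTAL pools 16, 18 and 20. The highest pool of each cKO group was also the one with the highest sum of proximal tubule markers, 342 CPM in cKO CTAL pool 2 and 399 CPM in cKO MTAL pool 18, most of it *Kap* (243 and 294 CPM), an androgen-regulated proximal tubule transcript. Of the 12 markers 5 were abundant enough to test between cKO MTAL and WT MTAL and 2 passed as higher, *Kap* and the phosphate transporter *Slc34a1*. *Slc34a1* measured 5.88, 22.02 and 31.6 CPM in cKO MTAL pools 16, 18 and 20 against 1.503 to 6.54 CPM in WT MTAL. *Lrp2* reached 34.7 CPM in pool 18, while *Slc2a2* and *Slc5a12* were at most 0.889 and 0.934 CPM in every pool. The log2 fold change of *Odc1* between cKO MTAL and WT MTAL was 0.25 (SE 0.16, adjusted p = 0.356). It was 0.01 without cKO MTAL pool 18 and 0.398 without cKO MTAL pool 20. Over 10 alternatives it ranged from 0.0868 to 0.57, and it passed in 1, the edgeR fit with a term for *Xist* (adjusted p = 0.0492). The part of proximal tubule RNA in the *Odc1* level was not tested beyond the fit with a marker term. That fit is among these alternatives and did not call *Odc1*.

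**Figure D3:**
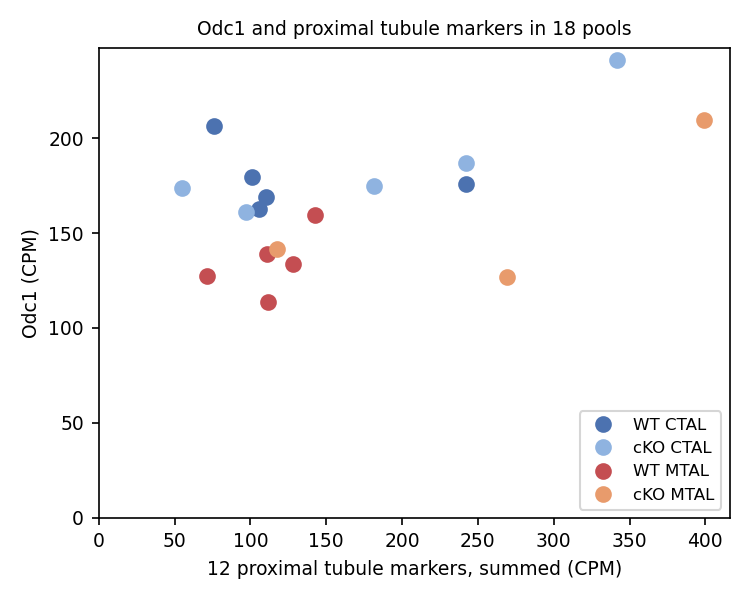
*Odc1* level (CPM) against the summed level of 12 proximal tubule markers (CPM), one point per pool, coloured by group, both axes linear from 0. The 2 pools at the right, cKO CTAL pool 2 (342 and 241 CPM) and cKO MTAL pool 18 (399 and 210 CPM), are the 2 with the highest *Odc1*; at sums under 150 CPM the WT CTAL pools lie above the WT MTAL pools.

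None of the 3 later enzymes of synthesis passed the test in any of the 5 comparisons. *Amd1* encodes adenosylmethionine decarboxylase, which prepares the aminopropyl donor, and ranged from 26.0 to 45.6 CPM over the 18 pools. Its log2 fold change was 0.02 between cKO MTAL and WT MTAL (adjusted p = 0.968) and -0.25 between WT MTAL and WT CTAL (adjusted p = 0.356). Its relative *Amd2* ranged from 1.25 to 12.2 CPM, and how reads that map to several near-identical copies were counted is not given. *Srm* encodes spermidine synthase and measured 10.2, 11.8, 7.99, 11.1 and 12.6 CPM in WT MTAL and 13.4, 16.05 and 16.2 CPM in cKO MTAL. Every cKO MTAL pool lay above every WT MTAL pool, as for 6.79% of all genes in this direction, but the log2 fold change of 0.51 (SE 0.24) had an adjusted p of 0.221. The single highest *Srm* pool of the series was cKO CTAL pool 2, with 19.2 CPM against 8.24 to 11.7 CPM in the rest of its group. *Sms*, on chromosome X, encodes spermine synthase and lay between 4.99 and 13.5 CPM. A copy, *Sms-ps*, took 4.68 to 10.7 CPM, and any reads shared with it would make the *Sms* level uncertain. The log2 fold change of *Sms* between WT MTAL and WT CTAL was -0.57 (SE 0.22, adjusted p = 0.148). It passed in 2 of 11 alternatives, both limma on TPM (-0.70, adjusted p = 0.0265, and -0.84, adjusted p = 0.0298), and was -1.04 over the 11 pools without *Xist* (adjusted p = 0.247).

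The regulators of ornithine decarboxylase did not pass the test in cKO MTAL. *Oaz1* encodes antizyme 1, which binds the enzyme, hands it to the proteasome and limits polyamine uptake. It measured 192, 254, 201, 201 and 212 CPM in WT MTAL pools 11, 13, 15, 17 and 19 and 299, 219 and 330 CPM in cKO MTAL pools 16, 18 and 20. Pools 16 and 20 lay above all WT MTAL pools and pool 18 inside their range. The log2 fold change was 0.42 (SE 0.14, adjusted p = 0.0752), and without cKO MTAL pool 18 it was 0.58 with an adjusted p of 0.0142, without WT MTAL pool 13 0.50 with an adjusted p of 0.0463. Over the alternatives that kept all pools the adjusted p of DESeq2 was 0.0391 and that of one fit of all 18 pools 0.0177, and over 10 alternatives it ranged from 0.0177 to 0.692, so that the call for *Oaz1* turned on the tool and the pools. *Oaz1* ranged from 236 to 275 CPM in WT CTAL and from 226 to 281 CPM in cKO CTAL, with a log2 fold change of 0.01. A processed copy, *Oaz1-ps*, took 28.5 to 62.5 CPM, and any reads shared with such copies would make the *Oaz1* level uncertain.

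*Azin1* encodes antizyme inhibitor 1, which binds antizyme and releases ornithine decarboxylase. It measured 170, 193, 160, 156 and 201 CPM in WT CTAL, 168, 191, 152, 148 and 161 CPM in cKO CTAL, 135, 137, 160, 181 and 139 CPM in WT MTAL and 128, 142 and 120 CPM in cKO MTAL. The cKO MTAL pools lay below all pools of both CTAL groups and overlapped with WT MTAL. Between cKO MTAL and WT CTAL the log2 fold change was -0.43 (SE 0.11, adjusted p = 0.0708), where 2.5% of the 12024 genes tested passed and 6.36% did not overlap in this direction. Between cKO MTAL and cKO CTAL it was -0.30 (SE 0.11, adjusted p = 0.163), where 5.98% of all genes did not overlap in this direction. Against WT MTAL it was -0.20 (SE 0.13, adjusted p = 0.363). DESeq2 called *Azin1* (adjusted p = 0.0156) and *Sat1* (adjusted p = 0.0294) between cKO MTAL and WT CTAL. The main edgeR test called 0 of the 9 genes there, and 3 had an unadjusted p under 0.05, against 20% of all genes. Over 11 alternatives, among them the likelihood ratio test of edgeR, *Azin1* passed in 6 and *Sat1* in 4 in this comparison.

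**Figure D4:**
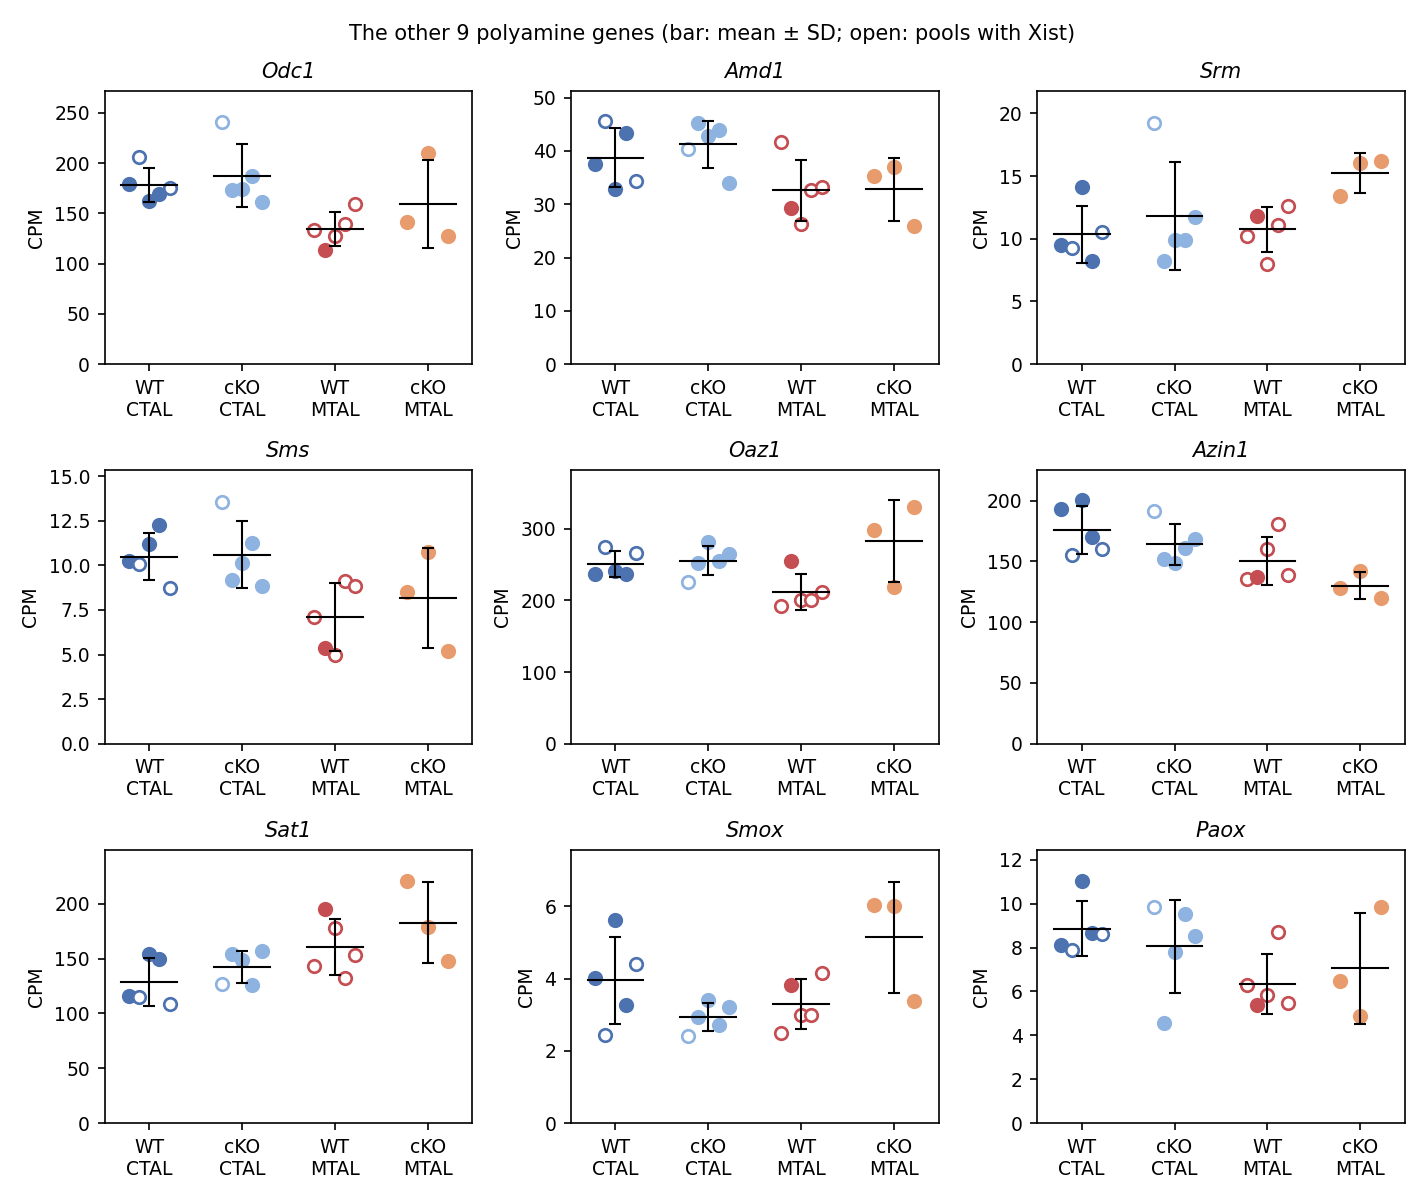
Levels (CPM, linear axes from 0, each panel with its own scale) of the other 9 genes in each of the 18 pools; points are pools, open points are pools with *Xist*, and lines with bars are the mean ± SD. *Odc1* is lower in WT MTAL (mean 135 CPM) than in WT CTAL (mean 179 CPM), and in most other panels the groups overlap.

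Among the catabolic enzymes, *Sat1*, on chromosome X, encodes the acetyltransferase that prepares spermidine and spermine for oxidation or export. It measured 150, 116, 108, 115 and 154 CPM in WT CTAL, 157, 126, 154, 149 and 126 CPM in cKO CTAL, 143, 195, 178, 132 and 154 CPM in WT MTAL and 221, 179 and 148 CPM in cKO MTAL. The means were ordered as for *Aoc1*, but each group overlapped with its neighbours. The log2 fold change was 0.32 between WT MTAL and WT CTAL (SE 0.12, adjusted p = 0.159), 0.51 between cKO MTAL and WT CTAL (SE 0.15, adjusted p = 0.103) and 0.19 between cKO MTAL and WT MTAL (SE 0.15, adjusted p = 0.478). With a term for *Xist* the last value was -0.05, and that between the WT segments was 0.44 with an adjusted p of 0.0242, the one of 11 alternatives in which it passed. The value between cKO MTAL and WT CTAL passed in 4 of 11 alternatives, with a lowest adjusted p of 0.0139.

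*Smox* encodes spermine oxidase, which turns spermine back into spermidine, and was the least abundant of the set. It measured 2.48, 3.83, 3.002, 2.99 and 4.16 CPM in WT MTAL and 6.03, 6.02 and 3.38 CPM in cKO MTAL, so that 2 of 3 cKO MTAL pools lay above WT MTAL. In CTAL the order was the opposite, with means of 3.95 ± 1.198 CPM in WT (SD, n = 5) and 2.94 ± 0.39 CPM in cKO (SD, n = 5). The log2 fold change was 0.65 in MTAL (SE 0.39, adjusted p = 0.337) and -0.47 in CTAL (SE 0.23, adjusted p = 0.460), and the difference between these effects, 1.08 (SE 0.42), did not pass (adjusted p = 0.222). *Smox* rested on 26 to 343 counts per pool. *Paox* encodes the oxidase of acetylated polyamines and ranged from 4.56 to 11.01 CPM. Its log2 fold change between WT MTAL and WT CTAL was -0.48 (SE 0.21, adjusted p = 0.211), and it overlaps *Echs1* on the opposite strand, so that its counts are uncertain where strand was not used.

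Beyond the 10 genes, 58 genes that supply, move or regulate polyamines were examined. Between cKO MTAL and WT MTAL 35 of the 58 were abundant enough to test and 2 passed (5.71%), *Arg2* as higher and *Hnmt* as lower. Between cKO CTAL and WT CTAL 2 of 33 passed, *Arg2* as higher and *Myc* as lower, and between WT MTAL and WT CTAL 2 of 33 passed, *Myc* as higher and *Arg2* as lower. Shares of 5.71% and 6.06% compare with 7.01%, 1.22% and 6.87% of all genes in these comparisons.

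*Arg2* encodes mitochondrial arginase, which makes ornithine, the substrate of ornithine decarboxylase. It measured 4.85, 10.04, 5.90, 5.03 and 2.40 CPM in WT MTAL pools 11, 13, 15, 17 and 19 and 16.5, 58.5 and 27.5 CPM in cKO MTAL pools 16, 18 and 20. It measured 13.1, 10.6, 8.81, 14.8 and 11.5 CPM in WT CTAL and 26.1, 51.5, 22.4, 20.4 and 20.9 CPM in cKO CTAL. In both segments every cKO pool lay above every WT pool, as for 6.79% of all genes in MTAL and 1.85% in CTAL. *Arg2* was 6.03-fold higher in cKO MTAL than in WT MTAL (log2 fold change 2.59, SE 0.40, adjusted p = 0.00109) and 2.41-fold higher in cKO CTAL than in WT CTAL (1.27, SE 0.24, adjusted p = 0.0175). The difference between these effects was 1.31 (SE 0.50, adjusted p = 0.212). *Arg2* overlaps *Vti1b* and an antisense gene, *Gm48780*, on the opposite strand, so that its counts are uncertain where strand was not used.

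The 2 highest *Arg2* pools, cKO MTAL pool 18 and cKO CTAL pool 2, were again those with the highest proximal tubule marker sums, and pool 18 also had the highest sum of 8 tubular injury markers, 9201 CPM against 2343 and 2317 CPM in the other cKO MTAL pools and 1164 to 1425 CPM in WT MTAL. Without cKO MTAL pool 18 the log2 fold change in MTAL was 1.96 (adjusted p = 0.00965), and with a term for proximal tubule markers 2.20 (adjusted p = 0.00229). Over the 11 pools without *Xist* it was 1.77 with an adjusted p of 0.111, the one of 10 alternatives in which the call in MTAL was lost. In CTAL the call was lost with the marker term (1.12, adjusted p = 0.184), in one fit of all 18 pools (adjusted p = 0.0832), with a term for *Xist* (adjusted p = 0.11), with WT CTAL pool 1 counted as cKO CTAL (adjusted p = 0.146), over the 11 pools without *Xist* (0.92, adjusted p = 0.693) and without WT CTAL pool 22 (adjusted p = 0.0536). The lower level in WT MTAL than in WT CTAL (-1.04, SE 0.30, adjusted p = 0.0454) was called in 2 of 10 fits that left out a pool and in 3 of 11 alternatives, and over the 11 pools without *Xist* it was -0.21 (adjusted p = 0.933).

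*Hnmt* encodes histamine N-methyltransferase, which inactivates histamine inside the cell, the other route beside diamine oxidase. It measured 40.5, 31.5, 42.2, 35.4 and 39.5 CPM in WT MTAL and 24.8, 23.1 and 17.8 CPM in cKO MTAL, with no overlap, as for 7.65% of all genes in this direction. The log2 fold change was -0.78 (SE 0.18, adjusted p = 0.0154). Without cKO MTAL pool 20, the pool with high principal cell markers, it was -0.65 with an adjusted p of 0.0628, and with a term for *Xist* -0.66 with an adjusted p of 0.0642. The call held in 6 of 10 alternatives and was also lost with limma on TPM (-0.58, adjusted p = 0.0965, and -0.60, adjusted p = 0.0952) and over the 11 pools without *Xist* (-0.52, adjusted p = 0.402). *Hnmt* did not differ beyond the test between the CTAL groups (-0.15, SE 0.16, adjusted p = 0.783).

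*Myc*, a transcription factor known to bind the *Odc1* gene, was singled out after its values were seen. It measured 48.3, 19.1, 48.9, 31.7 and 42.5 CPM in WT MTAL pools 11, 13, 15, 17 and 19 and 20, 26.9 and 12.3 CPM in cKO MTAL. It measured 17.3, 14.8, 19.5, 29.6 and 14.9 CPM in WT CTAL pools 10, 1, 22, 3 and 8 and 6.07, 11.6, 9.68, 7.26 and 7.81 CPM in cKO CTAL pools 21, 2, 4, 7 and 9. In CTAL the cKO pools lay below all WT pools, as for 1.24% of all genes (log2 fold change -1.17, SE 0.22, adjusted p = 0.0152). This call held in 8 of 11 alternatives and in all 10 fits that left out a pool. In MTAL the log2 fold change was -0.94 (SE 0.30, adjusted p = 0.0692), which passed in 4 of 10 alternatives (adjusted p from 0.00762 to 0.962) and in 2 of 8 fits that left out a pool, those without cKO MTAL pool 18 (adjusted p = 0.0363) and without WT MTAL pool 13 (adjusted p = 0.018). *Myc* was also higher in cKO MTAL than in cKO CTAL (1.25, SE 0.27, adjusted p = 0.0415), a call kept in 8 of 11 alternatives and in 2 of 8 fits that left out a pool. *Myc* was higher in WT MTAL than in WT CTAL (0.996, SE 0.24, adjusted p = 0.0175), whereas *Odc1* was lower there. This *Myc* call held in 6 of 11 alternatives and in 7 of 10 fits that left out a pool. In WT MTAL and in each CTAL group the highest *Myc* pool was one with *Xist*, and pool 13, the WT MTAL pool without it, had the lowest *Myc* of its group. Over the 11 pools without *Xist* the differences of *Myc* were -1.04 in CTAL (adjusted p = 0.214) and 0.31 between the WT segments (adjusted p = 0.814).

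**Figure D5:**
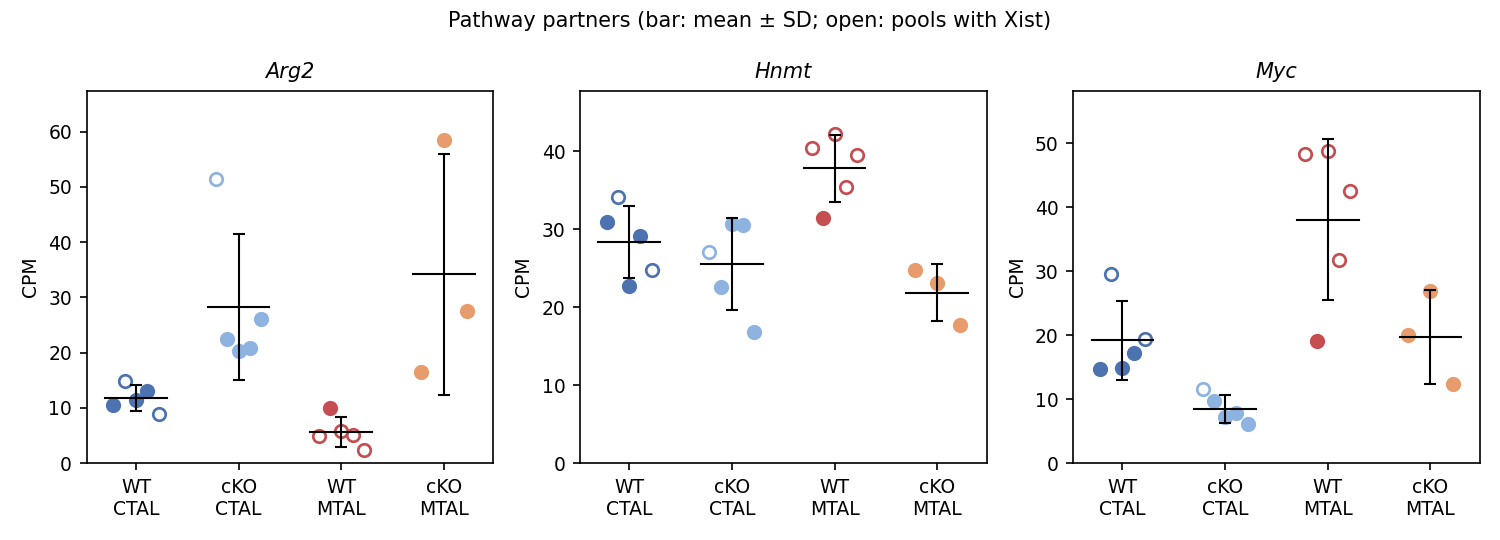
Levels (CPM, linear axes from 0, own scale per panel) of *Arg2*, *Hnmt* and *Myc* in the 18 pools; points are pools, open points are pools with *Xist*, and lines with bars are the mean ± SD. *Arg2* is higher in each cKO group than in the WT group of its segment, *Hnmt* is lower in cKO MTAL (17.8 to 24.8 CPM) than in WT MTAL (31.5 to 42.2 CPM), and *Myc* is lowest in cKO CTAL.

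The most abundant gene of each list by TPM did not pass between cKO MTAL and WT MTAL. *Oat*, the other enzyme that handles ornithine, had a log2 fold change of -0.03 (SE 0.12) and *Mat2a*, which makes S-adenosylmethionine, of -0.13 (SE 0.12). *Eif5a*, the translation factor that carries the spermidine-derived residue hypusine, had 0.27 (SE 0.11, adjusted p = 0.155). *Slc3a2*, the heavy chain of amino acid exchangers and a proposed polyamine carrier, had 0.44 (SE 0.13, adjusted p = 0.0554), with the groups not overlapping, as for 6.79% of all genes in this direction. It passed in 5 of 10 alternatives, with adjusted p from 0.00809 to 0.27. *Oaz2* (0.37, SE 0.15), *Sat2* (0.53, SE 0.39), *Aldh9a1* (-0.38, SE 0.17) and *Max* (0.14, SE 0.19) did not pass either, though *Oaz2* passed in 1 of 10 alternatives.

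The genes most like *Aoc1* across the 18 pools were ranked by Pearson's r of log2(CPM + 1) among 12585 genes, as a description in which all pools share group, library and depth. They were *Serpina10* (r = 0.90), a plasma protease inhibitor, *Slc2a1* (0.88), the glucose transporter GLUT1, *Ldha* (0.87), lactate dehydrogenase A, *Slco4a1* (0.86), an organic anion transporter, and *Fsd1l* (0.83), whose mean was at most 3.66 CPM in any group. On the scale of log2(TPM + 1) they ranked 1, 7, 42, 15 and 79, so that this order depended on the scaling. Without cKO MTAL pool 18, the highest for *Aoc1*, their r lay between 0.82 and 0.87. Mean levels of *Slc2a1* were 157 CPM in WT CTAL, 158 in cKO CTAL, 217 in WT MTAL and 267 in cKO MTAL, the same order as *Aoc1* with smaller steps. Among the other 9 genes r with *Aoc1* was highest for *Sat1* (0.67) and lowest for *Azin1* (-0.70).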

How the data were processed

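RNA of 18 pools of TAL was sequenced from poly-A selected, strand-specific, paired-end libraries. The methods of the study name fastp for trimming and the submitters' processing notes name Trimmomatic; reads were mapped to mm10 with DRAGEN and checked with FastQC and Picard. The authors deposited estimated counts per gene, not normalised, and TPM values, scaled for length to the same total in each pool. Use of strand in counting and the treatment of reads that map to several genes are not given in the sources used here. The study left out 2 pools of cKO MTAL and 1 of cKO CTAL, not analysed here.

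Estimated counts were rounded to whole numbers, where the plan had assumed whole counts. A gene entered a fit when 5 pools, or 3 in comparisons with cKO MTAL, held at least 3 CPM of it. The quasi-likelihood F test (edgeR 4.0.16 under R 4.3.3) was applied to TMM-normalised counts of the groups compared only, p-values were adjusted by Benjamini and Hochberg over all genes of the fit, and an adjusted p under 0.05 counted as passing. The difference between genotype effects was an interaction term in a fit of all 18 pools. SEs were derived from the F statistic. Scripts were tested on simulated data. Tried besides were a likelihood ratio test in edgeR, DESeq2 (1.42.0), RLE normalisation, no filter, limma (3.58.1) on log2(TPM + 1) and log2(TPM + 0.1), other sets of pools, a term for *Xist* (at least 1 CPM), and leaving out each pool; 2 were chosen after seeing the data, the fit of the 11 pools without *Xist* and the term for proximal tubule markers. Replicate pools differed by a chi-square of at least 14.8 per gene, so none was a library deposited again. All columns were mapped to pools. Gene identifiers matched the GENCODE vM21 annotation of GRCm38 in 99.5% of cases.

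The 10 genes and all lists were chosen with earlier results of these data known. The genes named were the 10 members, the partners that passed between cKO MTAL and WT MTAL, the most abundant gene of each partner list and the 5 genes most correlated with *Aoc1*; *Myc* was added after its values were seen.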

Additional observations from a re-analysis of the deposited data

Results flagged for a closer look

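The 10 genes were examined in the 3 groups of 5 pools for a pool far from the others of its group (Dixon's test), 30 groups in all, of which chance would flag about 1 in 20. There were 2 such pools, both for *Paox*. WT CTAL pool 8 held 11.01 CPM against 7.91 to 8.67 CPM in the other 4 pools, a gap of 0.754 of the range of the group. WT MTAL pool 17 held 8.701 CPM against 5.39 to 6.30 CPM, a gap of 0.727 of the range. The total counts of these pools, 62339991 and 53280729, were among the highest of the series. The part of depth, or of reads shared with *Echs1* on the opposite strand, in these values was not tested.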

How the results depend on the processing

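Of the values computed under alternatives other than leaving out 1 pool, 838 kept their direction and their side of the threshold, 29 gained a call, 35 lost one, 36 changed direction and 18 counts or untested values moved beyond their limit; over the fits that left out a pool these were 806, 10, 23, 35 and 4. *Aoc1* kept its direction in every comparison and alternative run, and its call between WT MTAL and WT CTAL in all 11 alternatives (log2 fold change 1.06 to 1.79) and all 10 fits without a pool (1.20 to 1.41); its description in cKO MTAL over WT MTAL lay between 0.93 and 1.80. No paired analysis was possible because the pools of the groups share no replicate number and came from different animals.

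Of the other 9 genes, those called between cKO MTAL and WT MTAL went from 0 to 1 with DESeq2, with one fit of all 18 pools, with a term for *Xist* (*Odc1*) and with a term for proximal tubule markers. Those called between cKO MTAL and WT CTAL went from 0 to 2 with the likelihood ratio test of edgeR, DESeq2, one fit of all 18 pools and the proximal tubule term, and to 1 without a filter and over the 11 pools without *Xist*. Genes of the 10 called between WT MTAL and WT CTAL went from 2 to 1 with one fit of all 18 pools and over the 11 pools without *Xist*, and to 3 with limma on both TPM scales (*Sms*) and with a term for *Xist* (*Sat1*). Without 1 pool these counts ranged from 0 to 1, 0 to 1 and 2 to 3, and the count for the difference between genotype effects from 0 to 1 (*Oaz1*, without cKO MTAL pool 18). The cause was not tested.

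On the TPM scale, which was not TMM-normalised, the median of all genes between cKO MTAL and WT MTAL was 0.19 with a pseudocount of 1, and 0.13 between cKO CTAL and WT CTAL, so that values there are shifted. With pseudocounts of 1 and 0.1, directions reversed between cKO MTAL and WT MTAL for *Oat* (0.164 and 0.165) and *Mat2a* (0.132 and 0.135), between the CTAL groups for *Azin1* (0.0873 and 0.0884), *Paox* (0.0292 and 0.0324) and *Hnmt* (0.00906 and 0.00895), between the WT segments for *Srm* (-0.0369 and -0.0395), between cKO MTAL and WT CTAL for *Odc1* (0.0888 and 0.0894) and for the difference between genotype effects for *Amd1* (0.0258 and 0.0307). With a term for *Xist* they reversed for *Sat1* between cKO MTAL and WT MTAL (-0.0465) and in the difference between effects (-0.138), and for *Srm* between the WT segments (-0.0337). Over the 11 pools without *Xist* they reversed between the MTAL groups for *Sat1* (-0.0926), *Myc* (0.0477) and *Aldh9a1* (0.18), between the CTAL groups for *Srm* (-0.12) and *Sms* (-0.2), between the WT segments for *Oaz1* (0.112), and in the difference between effects for *Amd1* (0.0508), *Azin1* (0.197) and *Sat1* (-0.14). With the proximal tubule term they reversed between the MTAL groups for *Paox* (-0.0379) and *Oat* (0.0253) and between the CTAL groups for *Sms* (-0.064). Without a filter they reversed for *Amd1* between the MTAL groups (-0.0475) and for *Sat1* in the difference between effects (-0.0011). With WT CTAL pool 1 counted as cKO CTAL they reversed for *Sms* (-0.0146) and *Oaz1* (-0.0256) between the CTAL groups and for *Myc* between cKO MTAL and WT CTAL (-0.0254). None of these values passed an adjusted p of 0.05. Leaving out each pool in turn, log2 fold changes between cKO MTAL and WT MTAL crossed 0 for *Amd1* -0.0759 to 0.165, *Max* -0.197 to 0.352, *Oat* -0.0743 to 0.0432, *Paox* -0.151 to 0.371 and *Sms* -0.0389 to 0.456. The ranges for the difference between genotype effects were *Amd1* -0.166 to 0.0788, *Odc1* -0.0591 to 0.334, *Paox* -0.00544 to 0.511, *Sat1* -0.107 to 0.196 and *Sms* -0.0506 to 0.45. The ranges between cKO MTAL and cKO CTAL were *Arg2* -0.309 to 0.642 and *Paox* -0.485 to 0.0684. The ranges between cKO MTAL and WT CTAL were *Myc* -0.232 to 0.319. The ranges between cKO CTAL and WT CTAL were *Oaz1* -0.0212 to 0.0562, *Odc1* -0.0455 to 0.12, *Sms* -0.0991 to 0.0669 and *Srm* -0.0738 to 0.323. The ranges between WT MTAL and WT CTAL were *Srm* -0.0251 to 0.195.

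Precision was limited by 3 cKO MTAL pools, by a single WT MTAL pool without *Xist*, whose spread was taken from the other groups, and for *Smox* by counts of 26 to 343 per pool.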

Other observations

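The marker lists moved with genotype in MTAL as follows. Of the endothelial markers 4 of 7 were lower in cKO MTAL than in WT MTAL, of the tubular injury markers 3 of the 5 tested were higher (*Spp1*, *Lcn2* and *Clu*), of the proximal tubule markers 2 of the 5 tested were higher (*Kap* and *Slc34a1*), and of the intercalated cell markers 2 of the 6 tested were higher. Of the thin limb markers 1 of the 5 tested was lower (*Slc14a2*), of the fibroblast and pericyte markers 1 of the 6 tested was higher (*Acta2*), and 0 of 6 immune, 0 of 7 principal cell, 0 of 1 macula densa and 0 of 1 urothelium markers passed. No distal convoluted tubule marker was abundant enough to test. The part of these cell types in the levels of the polyamine genes was not tested beyond the fit with a proximal tubule term.

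Of the other copper amine oxidase genes *Aoc2* lay between 0.952 and 6.53 CPM, with means of 3.73 CPM in WT MTAL and 1.74 CPM in cKO MTAL, and *Aoc3* reached at most 2.02 CPM. *Doxl2* had 1 count in 1 pool and *Svs1* had 0 counts in all 18 pools.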
